A study of Mus musculus with 6 samples.

Results

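The genes described are the Src family tyrosine kinases Src, Lyn, Fyn, Lck, Fgr, Blk and Yes1 together with Csk, the kinase that restrains them. They are 8 of the 29209 entries in the authors' deposited comparison, taken by their exact identifiers, and all 8 are among the 18543 entries that carry an adjusted p. The set was chosen by the fold and p-value of Src in this same comparison, so their folds and p-values are given as a description.

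RNA came from subcutaneous tumours of NCr nude mice, hosts without a thymus that keep B, NK and myeloid cells. The mice had been injected with spleen cells of diseased mir-155LSLtTA animals, which overexpress miR-155 from a doxycycline-repressible transgene. The DOX group (3 samples) ate chow with doxycycline at 2.3 mg/kg for 16 hours before harvest, and the No DOX group (3 samples) was untreated. Both groups carry the transgene and no DOX-fed tumour without it was compared, so miR-155 withdrawal and doxycycline as a drug cannot be told apart. The promoter or Cre line that opens the allele, the age of the mice, and whether the injected cells were 1 clone or pooled are not given in the sources used here.

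The deposited table gives, for each gene, a ratio of both groups with an unadjusted and an adjusted p. It holds no value for single samples, no level and no depth, so neither the spread between tumours nor the depth behind a gene is known. Separate animals are not named for the samples of a group, so the p-values cover the spread among these samples alone, and it may be technical. The numerator of the ratio is not stated. It was read as DOX over No DOX, and all directions reverse if it is the other way round.

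Src family kinases sit on the inner face of the plasma membrane, held there by a lipid on their first residues, and pass signals from receptors that have no kinase of their own, as well as from receptor kinases such as Kit. Csk phosphorylates a tyrosine in their C-terminal tail and folds them into an inactive shape, and phosphatases such as CD45 (gene Ptprc) reverse this. In B cells Lyn, Fyn and Blk phosphorylate the antigen receptor chains and so engage Syk, and Lyn also marks inhibitory receptors that recruit the phosphatase SHP-1 (gene Ptpn6). Lck serves T cells, Fgr serves myeloid cells, and Src, Fyn and Yes1 are found in many tissues.

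Because miR-155 was the microRNA withdrawn, the members were searched for its seed match, a stretch of the 3' UTR that fits the microRNA's first bases. Counted were AGCATTA, which pairs with bases 2 to 8, and GCATTAA, which pairs with bases 2 to 7 and has an A after them. The mature microRNA (RefSeq, GRCm38.p6, chr16:84714143-84714165, plus strand) is shown first with bases 2 to 8 in capitals. The match in Yes1 stands second, with the letters of both forms in capitals, of which the last A lies opposite base 1 and is not counted as paired. Both run 5′ to 3′.
mmu-miR-155-5p: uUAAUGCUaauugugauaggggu
Yes1 3' UTR site: tttttttttctccaAGCATTAAactctaaa
Yes1 was the 1 member of 8 with AGCATTA or GCATTAA on the sense strand of its longest annotated 3' UTR (GENCODE M21). The match covers bases 156 to 163 of a 3' UTR of 2298 bases, and both 7-base forms overlap in it. The 3' UTR of Src, 1901 bases long, holds neither form, nor do those of Lyn (1669), Fyn (1409), Lck (454), Fgr (1567), Blk (556) and Csk (675). Among 14751 tested entries with an annotated 3' UTR, 2015 hold a match. A match is a description of letters and not a shown site of binding.

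Src, the founding member of the family, fell 24.3-fold, a log2 fold of -4.60 with an adjusted p of 1.19e-21 in the authors' deposited table. An approximate standard error, obtained by reading the p as a normal quantile, is 0.44, which gives a 95% interval of -5.47 to -3.74. In bulk tumour RNA, fewer cells that express Src and less Src RNA per cell cannot be told apart. By p-value Src ranked 2 of 18543, behind Kit. Of 1034 entries that passed with a finite ratio below 1, 16 had a log2 fold below that of Src, and the median of the 1034 was -1.55. Src was the 1 member of 8 that passed an adjusted p of 0.05, with 0 higher and 1 lower. Over all entries 11.3% passed, 5.72% higher and 5.61% lower. At an unadjusted p under 0.05 there were 2 members, Src and Fyn, beside 22.4% of all entries. Since Src was picked for its value, nothing is read from these counts.

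None of the other 7 members passed, which does not show that they did not differ. Fyn, which acts beside Lyn in lymphocytes, had a log2 fold of -0.81 with an unadjusted p of 0.0341 and an adjusted p of 0.175 in the authors' deposited table. Its approximate interval ran from -1.57 to -0.06. Csk had -0.73 (adjusted p = 0.285, approximate interval -1.53 to 0.07) in the authors' deposited table. Those 2 values are close to each other and far from that of Src.

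Lyn, the family member best known from B cells and myeloid cells, had a log2 fold of 0.46 (adjusted p = 0.507) in the authors' deposited table. Its approximate standard error of 0.347 was the smallest among the 8 members, and its interval ran from -0.22 to 1.14. Lck, the kinase of T cell receptor signalling, had -0.34 (0.974, interval -1.82 to 1.15) in the authors' deposited table. Blk, largely a B lineage kinase, had 1.03 (0.689, interval -0.97 to 3.03) in the authors' deposited table.

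Fgr, a kinase of neutrophils and macrophages, had a log2 fold of 1.87 (adjusted p = 0.431, interval -0.61 to 4.35) in the authors' deposited table. Yes1, a broadly expressed and close relative of Src, had the highest ratio of the members, 7.30, a log2 fold of 2.87 (adjusted p = 0.716) in the authors' deposited table. Its approximate interval reached from -3.01 to 8.74, which covers a large rise as well as a fall. Its approximate standard error of 3.00 was larger than that of 96.4% of the 12001 entries for which one was computed, against 6.55% for Lyn. Yes1, the member with the seed match, was thus the least precisely measured of the 8.

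**Figure D1:**
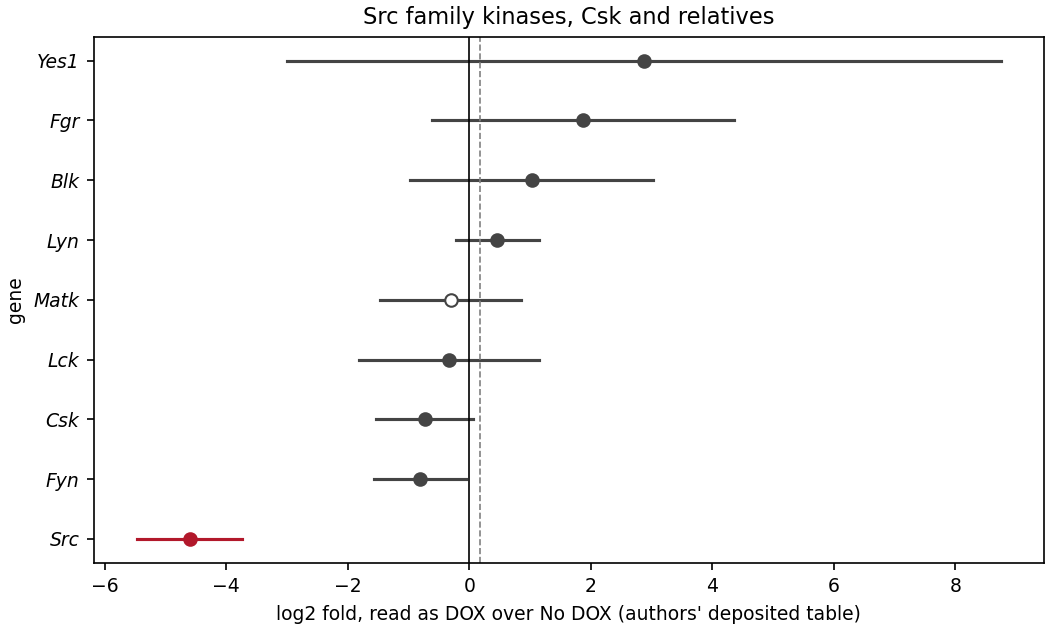
Log2 fold of each member (filled) and of the relative Matk (open), with approximate 95% intervals derived from the authors' p-values. The solid line marks 0 and the dashed line the median of all entries, 0.17; Src (red, -4.60) is the 1 gene past the threshold.

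In order of log2 fold the members ran Src, Fyn, Csk, Lck, Lyn, Blk, Fgr and Yes1, with 4 below 0 and 4 above. The gap from Src to Fyn was 3.79, and their approximate intervals did not overlap. Between each of the other neighbours the gap was at most 1.00 and the intervals overlapped, so their order is not resolved. The members' median was 0.06, beside 0.17 over all 15784 entries with a finite fold. With that median subtracted, Src stood at -4.78 and Lyn at 0.29, and each member kept its sign.

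**Figure D2:**
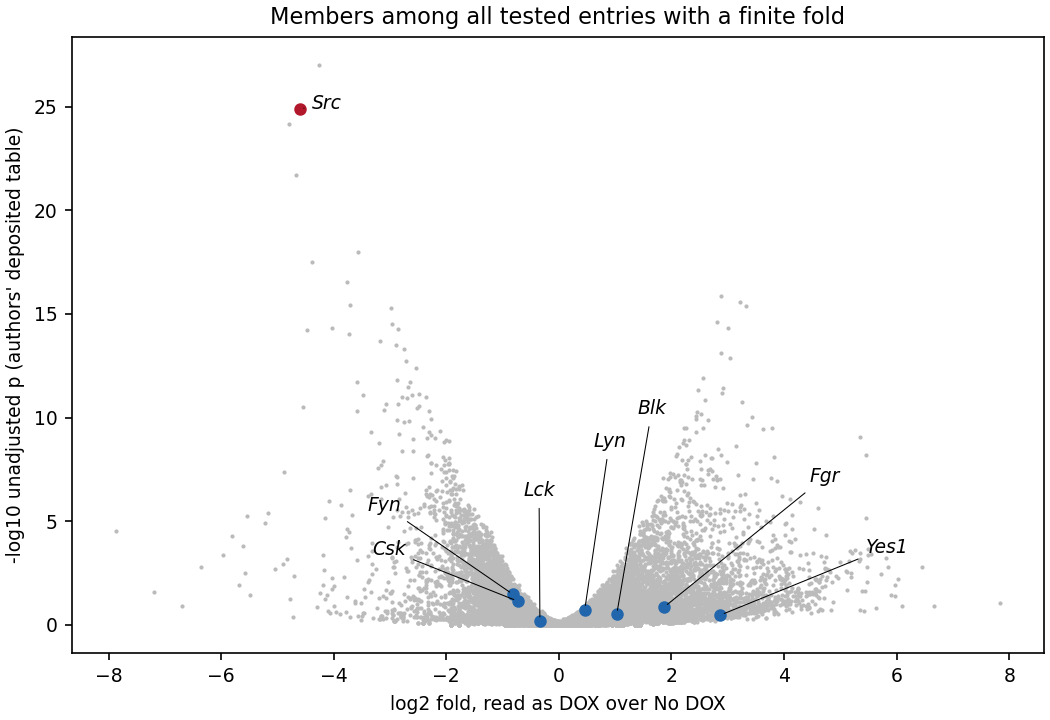
Log2 fold (x axis) against -log10 unadjusted p (y axis) of the 15784 tested entries with a finite fold in the authors' deposited table. Src (red) stands near the top left, and the other 7 members (blue) lie along the bottom among the bulk of entries.

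A finite ratio means that both groups had reads of the gene, and this held for all 8 members. It did not hold for the family relatives Frk, Srms and Ptk6, whose ratios are listed as Inf in the authors' deposited table, with adjusted p-values of 0.28, 1.00 and 1.00. One group was therefore listed at 0 for them, No DOX under the reading used here. Matk, a homologue of Csk with the same target tyrosine, had a log2 fold of -0.31 (adjusted p = 0.94, approximate interval -1.47 to 0.86) in the authors' deposited table. Of these 4 relatives 0 passed, and 0 had an unadjusted p under 0.05.

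Among cytoplasmic tyrosine kinases, the 8 members and 22 others, 30 were tested, 1 fell (Src) and 1 rose. The 1 that rose was Syk, which binds the receptor chains that Src family kinases phosphorylate, at 1.38 (adjusted p = 0.0269) in the authors' deposited table. Jak2, which carries cytokine receptor signals, had 1.57 (0.0673) in the authors' deposited table. The next lowest after Src, named after its values were seen, was Tnk2 at -1.04 (0.19) in the authors' deposited table. Among finite ratios the highest after Yes1, named in the same way, was Fer, listed as Fert2, at 2.80 (0.102) in the authors' deposited table. Of the 22 others, 5 had a ratio listed as Inf and stand outside this order. Of the 22 others 4.55% passed, beside 11.3% of all entries.

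The regulators are 20 tested genes listed as Csk anchors, phosphatases and ubiquitin ligases. Of these, 3 fell and 1 rose, which is 20.0% beside 11.3% of all entries, and the list's median log2 fold was 0.01. Whether each acts on Src family kinases in these tumours was not tested. Cish, a cytokine-induced adaptor of the SOCS family, fell by 4.03 on the log2 scale (adjusted p = 5.68e-12) in the authors' deposited table. Ptpn6, the SHP-1 phosphatase through which Lyn-marked receptors act, fell by 2.35 (4.4e-05) in the authors' deposited table. Pag1, a membrane adaptor that brings Csk to lipid rafts, fell by 1.82 (0.000594) in the authors' deposited table. Dok3, an adaptor that dampens B cell receptor signals, rose by 1.86 (0.0101) in the authors' deposited table. The 16 others did not pass, among them Ptprc, whose phosphatase opens the Src family tail, at 0.24 (0.74, approximate interval -0.28 to 0.76) in the authors' deposited table.

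Partners and substrates changed in both directions. Of 36 tested, 5 fell and 5 rose, 27.8% beside 11.3% of all entries, with a median log2 fold of -0.24. At an adjusted p under 0.01 these became 2 lower and 0 higher, and under Bonferroni 1 lower and 0 higher, so the rises rest on the 0.05 threshold. Kit, the stem cell factor receptor, signals partly through Src family kinases and fell by 4.25 in the authors' deposited table (adjusted p = 1.76e-23). Plcg2, the phospholipase of B cell receptor signalling, fell by 1.51 (0.000591) in the authors' deposited table. Falls were smaller for the actin regulator Was, -1.22 (0.0241), and for Ctnnd1, the p120 catenin first known as a Src substrate, -1.12 (0.0244), in the authors' deposited table. Hcls1, a cortactin relative of blood cells and a Lyn substrate, fell by 1.08 (0.0265) in the authors' deposited table.

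Besides Syk, the other 4 that rose lie outside the naming rule and were named after their values were seen. Fyb, an adaptor that binds Fyn, stood at 4.15 (adjusted p = 0.0307) and Cttn, the Src substrate cortactin, at 4.06 (0.0371) in the authors' deposited table. Blnk, which links Syk to phospholipase C, had 1.04 (0.0397) and Plcg1 had 1.12 (0.0417) in the authors' deposited table. The approximate standard errors of Fyb and Cttn, 1.39 and 1.40, were over 3 times those of Blnk (0.363) and Plcg1 (0.394). The phospholipase genes Plcg1 and Plcg2 thus changed in opposite directions, as did Cttn and its blood cell relative Hcls1.

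Of 12 inhibitory receptors that Lyn is known to phosphorylate, 2 rose and 0 fell, 16.7% beside 11.3%, with a median log2 fold of 0.81. Cd300a, a receptor of myeloid and lymphoid cells, rose by 2.22 (adjusted p = 0.00262), and Cd72, a B cell coreceptor, by 1.24 (0.0263), in the authors' deposited table. Among 16 genes for lipid attachment and chaperoning of these kinases, 1 fell and 0 rose, 6.25% beside 11.3%, with a median of -0.61. The 1 was Hsp90ab1, an HSP90 chaperone on which many kinases depend, which fell by 2.61 (4.17e-09) in the authors' deposited table. Cdc37, the kinase-specific partner of HSP90, had -0.995 (0.0607) in the authors' deposited table.

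**Figure D3:**
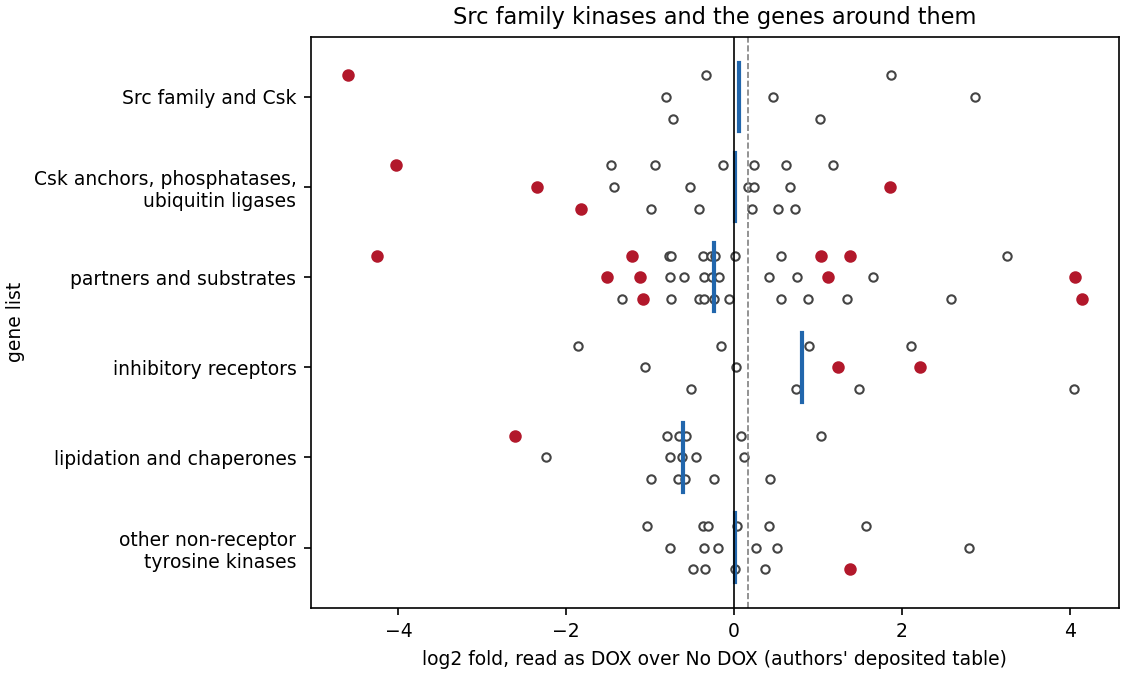
Log2 fold of each gene with a finite ratio (x axis) in 6 lists (y axis); red points passed an adjusted p of 0.05, open points did not, and blue bars are list medians. The solid line marks 0 and the dashed line the median of all entries, 0.17; Src, Cish and Kit stand at the far left of their lists, at -4.60, -4.03 and -4.25.

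No seed match was found in the 3' UTR of any called gene in these lists. Outside the members, matches stood in 2 of 20 regulators (Cbl and Ptprj), in 0 of 36 partners, in 0 of 12 inhibitory receptors and in 2 of 22 other tyrosine kinases (Abl2 and Ptk6). In the lipidation and chaperone list 3 of 16 held one, Metap1, Zdhhc20 and Zdhhc21. Ptk6, Metap1 and Ptprj held the GCATTAA form alone. Apart from Ptk6, these genes were named after their values were seen. Zdhhc20, a palmitoyl transferase, had a log2 fold of 1.03 (adjusted p = 0.0707) in the authors' deposited table. The ubiquitin ligase gene Cbl had -0.42 (0.673), Ptprj 0.16 (0.829), Abl2 0.03 (1.00), Metap1 0.09 (1.00) and Zdhhc21 0.12 (1.00) in the authors' deposited table. The 8-base match of Yes1 recurs in Zdhhc20, Zdhhc21 and Cbl, and all 3 are shown for comparison.
Zdhhc20 3' UTR site: aaggtttagttagaAGCATTAAtacttcta
Zdhhc21 3' UTR site: ttcagaatctcctaAGCATTAAacagtcta
Cbl 3' UTR site: atacaggcaggtagAGCATTAAataaatac

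Several members are typical of particular blood cells, so markers of these and of stromal cells are given beside them. Over all 18543 tested entries 11.3% passed, and 11007 had a ratio above 1. The lists' calls depend on the threshold. Macrophage and monocyte markers, which accompany Fgr and Lyn, had ratios above 1 in 13 of 13 tested, with log2 folds from 0.41 to 4.75, a median of 2.16, and 4 that rose, 30.8% (1 under Bonferroni). Neutrophil markers, which also go with Fgr, were above 1 in 8 of 9, 3 rose, 33.3% (0 at an adjusted p under 0.01 and 5 under 0.1), and the median was 3.33 over 6 with a finite ratio. Mpo, a marker of early neutrophils, was the 1 listed at a ratio of 0 in the authors' deposited table. Fgr, at 1.87, lay within the range of the macrophage list and below that of the neutrophil list, whose finite values ran from 2.00 to 5.96. The approximate interval of Fgr, -0.61 to 4.35, reaches into both ranges, so this placing is not resolved. The part of these cells in the values of Fgr and Lyn was not tested.

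B lineage markers, which accompany Blk and Lyn, had 3 higher and 2 lower of 12, 41.7%. At an adjusted p under 0.01 these were 1 and 1, and under Bonferroni 0. Ratios were above 1 in 6 of the 12, with a log2 range of -4.12 to 1.61 and a median of 0.07. The lowest, named after its values were seen, was Ms4a1, the CD20 gene, at -4.12 (adjusted p = 0.183) in the authors' deposited table. The antigen receptor chains Cd79a and Cd79b, substrates of Lyn, Fyn and Blk, had -0.27 (adjusted p = 1.00) and 0.56 (0.276) in the authors' deposited table. T cell markers, which accompany Lck and Fyn, had 0 of 10 called by the authors' test (1 at an unadjusted p under 0.05). Of the 10, 6 had a ratio above 1, with a log2 range of -2.65 to 3.67 and a median of 0.78. NK cell markers had 0 of 10 called (0 unadjusted), 9 of 10 above 1 and a median of 3.38 over 7 finite ratios. Platelets are rich in Src, and of 6 tested platelet markers 0 were called (0 unadjusted), with 5 above 1 and a median of 0.74. Fibroblast markers were above 1 in 9 of 10, 2 rose (0 under Bonferroni), and the median was 1.85. Endothelial markers were above 1 in 8 of 10, 1 fell (0 at an adjusted p under 0.01), and the median was 1.28. The part of changes in cell make-up in the value of Src was not tested.

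**Figure D4:**
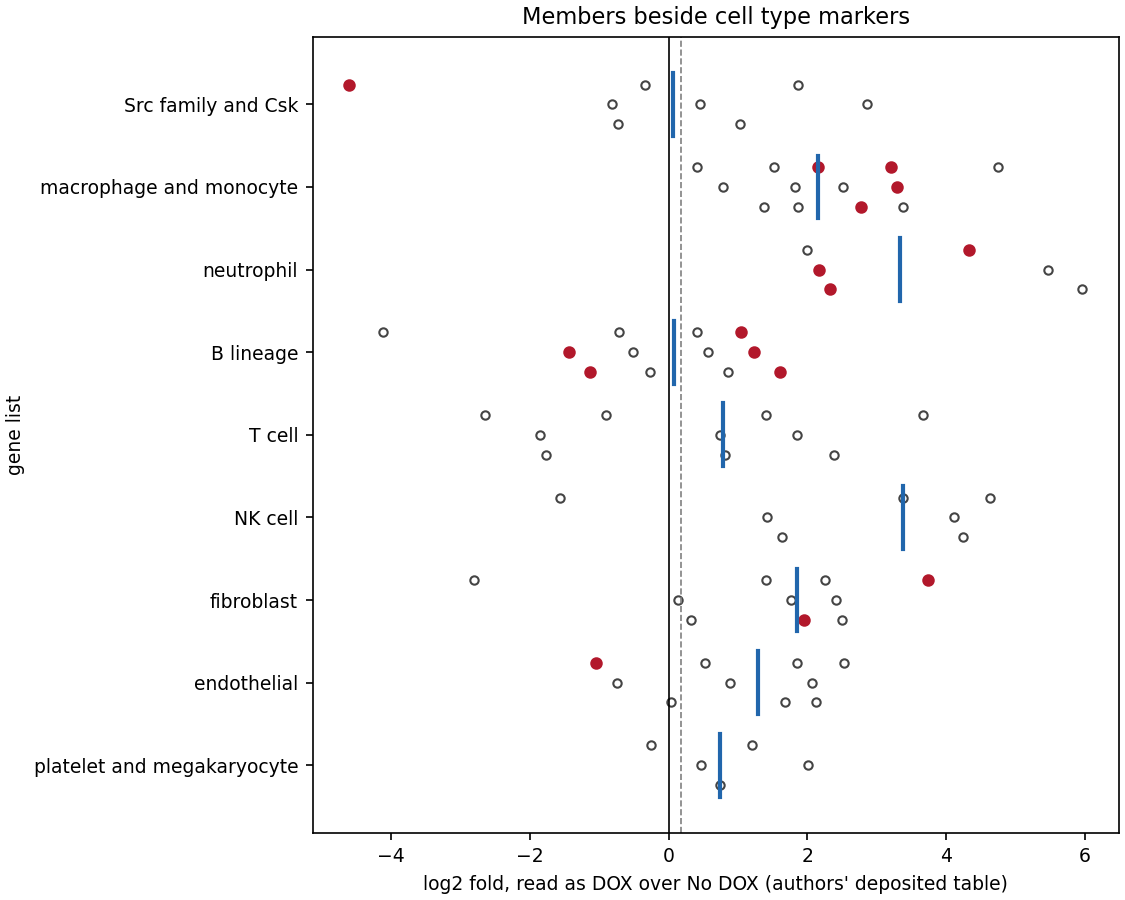
Log2 fold of each marker with a finite ratio (x axis) by cell type (y axis), under the 8 members in the top row; red points passed an adjusted p of 0.05, open points did not, and blue bars are medians. The macrophage markers lie between 0.41 and 4.75, to the right of the dashed line at the median of all entries (0.17), and the B lineage markers lie on both sides of it.

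Direction across the whole table went with transcript GC, and the members span its range. Of tested genes in the decile of lowest transcript GC (up to 42.0%), 15.1% rose and 1.28% fell, and in the highest (58.2% and over) 1.49% rose and 6.02% fell. Falls were most frequent in decile 7, at 9.68%. Yes1, at 41.1% GC, lies in the lowest decile and has the highest fold of the members, with a wide approximate interval of -3.01 to 8.74. Fgr and Blk, both in decile 7, had the next highest log2 folds, 1.87 and 1.03. Lyn in decile 3 had 0.46, Fyn in decile 5 had -0.81 and Lck in decile 8 had -0.34. Src (59.3%) and Csk (60.1%) both lie in the highest decile, where the median log2 fold was -0.15, and stood at -4.60 and -0.73. Direction went with transcript length too, with 0.744% higher and 14.5% lower in the decile of shortest transcripts and 15.2% and 2.64% in that of the longest. By length Src, at 3906 bases, lies in decile 7 of 10, where 6.16% rose and 4.40% fell. The part of transcript composition and length in these values was not tested.

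**Figure D5:**
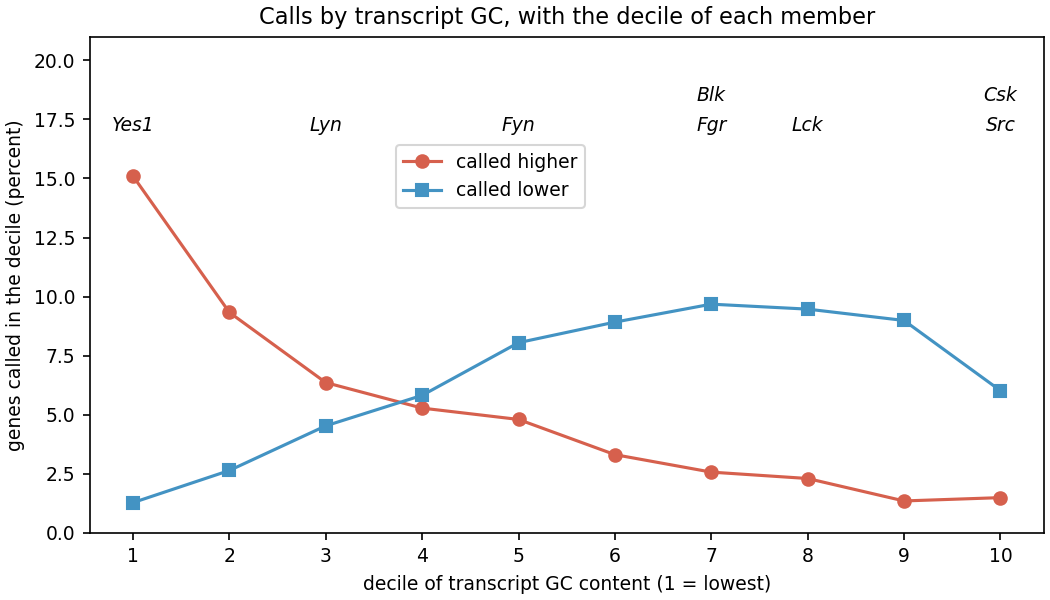
Percent of genes called higher (circles) and lower (squares) in each decile of transcript GC content, with each member's name above its decile. Higher calls go from 15.1% in the lowest decile to 1.49% in the highest, and lower calls are highest in decile 7 (9.68%). Yes1 stands in the lowest decile, Src and Csk in the highest, and the other members between.

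The DNA before the Src start is shown because Src is the 1 member that passed the threshold, and it shares the high GC of the transcript. These 250 bases (RefSeq, GRCm38.p6, chr2:157424043-157424292, plus strand) are given 5′ to 3′ with GGGCGG, the core of a GC box, in capitals.
Src promoter: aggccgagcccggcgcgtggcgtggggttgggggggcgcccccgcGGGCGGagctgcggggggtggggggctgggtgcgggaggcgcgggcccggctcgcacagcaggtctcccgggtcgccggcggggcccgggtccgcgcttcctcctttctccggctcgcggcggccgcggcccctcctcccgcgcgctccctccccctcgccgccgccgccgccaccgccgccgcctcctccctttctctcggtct
It is 82.8% GC, above 99.5% of the 32851 promoters in the RefSeq table, and the promoter of Yes1 is 77.2% GC, above 97.4%. Of the members, 6 have an entry there and 4 hold GGGCGG on either strand (Src, Fyn, Lck and Yes1), beside 32.7% of all promoters. CCAAT stood in 1 of 6, Fyn, beside 33.8%. The E-box CACGTG stood in 0 of 6, beside 6.02%. The TATA box letters TATAAA stood in 0 of 6, beside 12.4%, as did the ETS-type motif GAGGAAGT, beside 2.44%. No motif searched separates Src from Yes1, and a match is a description of letters only. The approximate interval of Yes1, -3.01 to 8.74, covers both signs, so nothing is read from setting Yes1 against Src.

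Genes past a Bonferroni adjustment were ranked by how close their log2 fold was to that of Src in this 1 comparison. The 4 closest were Cdh17, a cadherin, at -4.55, Emid1 at -4.67, Tmem119 at -4.48 and the transcription factor gene Myc at -4.80 in the authors' deposited table. Their absolute differences from Src were 0.0529, 0.0668, 0.126 and 0.195. All are smaller than the approximate standard error of Src, but the genes were picked for closeness, so no likeness is read from this. No other member of the family came near this group, the next being Fyn at -0.81.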

How the data were processed

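RNA from 6 tumour samples, 3 per group, was sequenced after ribosomal RNA depletion, per the labels' protocols. RSEM, DESeq and the mm9 build are named, with no version, per the submitters' processing notes. The deposited file holds the authors' comparison alone: a linear fold ratio and unadjusted and adjusted p-values, per the file headers. Log2 folds were taken from the ratio. Adjusting the deposited p-values again by Benjamini-Hochberg over the 18543 entries gave the deposited ones (largest difference 2.09e-06). No test was added, and a call is the authors' adjusted p under 0.05.

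For each gene with an unadjusted p up to 0.7, a limit set after seeing values, its log2 fold without sign was divided by the two-sided normal quantile of that p to give an approximate standard error. It assumes a symmetric test, so intervals are rough. List genes were matched by symbol, accession or unique synonym, against RefSeq (GRCm38.p6). Transcript length, GC and 3' UTRs came from the longest GENCODE M21 (GRCm38) forms for 14788 entries, with no coordinates from the files. Named were all members, all 4 relatives, up to 6 called genes per list by adjusted p (or the 2 smallest where fewer than 2 were called) and the 4 closest to Src. Members and lists were chosen with earlier results of these data known. From the lists, 2 genes are not reported here. The adjustment was tested on simulated data drawn under the same normal reading of p, so that reading itself was not tested. Python 3.11.15, pandas 2.3.3 and scipy 1.17.1 were used.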

Additional observations from a re-analysis of the deposited data

How the results depend on the processing

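No paired analysis was possible because the deposited table holds no values per sample, and for the same reason no replicate could be left out. Calls were counted again in 7 ways: adjusted p under 0.01 or 0.1, Bonferroni, finite folds only, at least 2-fold, centred folds, and protein-coding matches only. Src was called under all of these, but it was picked for its fold and p-value, so nothing is read from that. Centring moved the folds and left every count of calls as it was. Only an adjusted p under 0.1, finite folds only and protein-coding matches only could add a call, and none of these called another member. At an adjusted p under 0.01 all calls numbered 1145, partners and substrates 2, inhibitory receptors 1 and other tyrosine kinases 0. Under Bonferroni these became 291, 1, 0 and 0, and the regulators 2. At 0.1 the other tyrosine kinases numbered 2 and the lipidation and chaperone list 3. Of 44 genes examined with a finite fold, among them 16 named after their values were seen, 10 lost their call at 0.01, 13 under Bonferroni, and 3 gained one at 0.1. With folds centred, 4 that had not passed changed sign: Ptprj to -0.0104, Metap1 to -0.0857, Abl2 to -0.14 and Zdhhc21 to -0.0492. For the inhibitory receptor, lipidation, relatives and marker lists, and for the genes named afterwards, these were added after seeing the data. Depth is unknown, and the wide intervals of Yes1, Fgr and Blk limit what can be said of them.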
